A study of Mus musculus with 15 samples.

Results

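The genes of cholesterol and fatty acid synthesis were followed through RNA-seq libraries of lung group 2 innate lymphoid cells (ILC2) and splenic regulatory T (Treg) cells. The set holds 33 genes, chosen by symbol: 7 enzymes of the mevalonate pathway, 9 enzymes that turn its product into cholesterol, 5 genes of the sterol sensing machinery, 9 genes of fatty acid synthesis and desaturation, and 3 genes of cholesterol transport. All 33 were present in both expression tables, among 23846 entries in the table of ILC2 from IL-33- or PBS-injected mice and 23529 in the table of reporter mice.

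All groups but ILC2PBS came from mice given IL-33. ILC2IL-33 (n = 2) and ILC2PBS (n = 3) were lung ILC2 of mice injected on 4 days with IL-33 or PBS, and were sorted for CD45, Thy-1.2 and ST2 without lineage markers. The title of ILC2IL-33 replicate 1 reads WT and the other labels of both groups give no genotype, while the methods give C57BL/6 or the reporter strain, of either sex. ILC210 (n = 3) and ILC2act (n = 3) were Thy-1.1+ and Thy-1.1- lung ILC2 of 10BiT Foxp3GFP reporter mice after IL-33. In these mice a transgene places Thy-1.1 under *Il10* control, so Thy-1.1 marks cells that express or recently expressed *Il10*, and GFP marks *Foxp3* expression. Treg10+ (n = 2) and Treg10- (n = 2) were Thy-1.1+ and Thy-1.1- Treg cells from the spleens of such IL-33-injected reporter mice. All mice were 6 to 14 weeks old, and cells of 5 mice were pooled for an experiment. The replicates therefore stand for pools, and the labels do not say which libraries came from separate pools, so that the p-values measure the spread between these libraries, part of which may be technical. A source field names lung ILC2 for the Treg samples as well, against their titles, and *Foxp3* (88.4 to 112 FPKM in Treg libraries, at most 0.0955 FPKM in ILC2 of the same table) went with the titles.

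Cholesterol is built from acetyl-CoA through mevalonate, farnesyl diphosphate, squalene and lanosterol, and fatty acids are built from the same precursor by carboxylation, elongation and desaturation. When membrane sterol is low, the escort protein SCAP carries the transcription factors SREBP-1 and SREBP-2 out of the endoplasmic reticulum, and INSIG proteins hold them back when sterol is plentiful. Lymphocytes that begin to divide need both products for new membranes. In the lung, the alveolar type 2 cell is known for strong fatty acid synthesis, since it makes the lipids of surfactant.

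Expression is given as FPKM, fragments scaled by transcript length and by how many reads each library had mapped, which sets genes of different length on 1 scale. Log2 ratios, or log2 fold changes, compare group means on the log2 scale after FPKM below 1 were set to 1, so that changes of genes near that floor are understated. limma was fitted over all expressed genes of a table, and a gene is said to have passed where its p was under 0.05 after Benjamini-Hochberg adjustment. Ranges in parentheses after a log2 ratio are 95% intervals. No read counts came with the values, so the depth behind each of them is unknown.

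The libraries differed in RNA of other lung cells. The summed level of 9 alveolar type 2 markers lay at 103.6 and 180.8 FPKM in ILC2IL-33, against 4943 to 14032 FPKM in ILC2PBS, and at 5416 to 8804 FPKM in ILC210, against 426 to 527 FPKM in ILC2act. All 9 markers passed in both comparisons, lower in ILC2IL-33 and higher in ILC210. The same held for all 7 endothelial and all 6 mesenchymal markers, for all 8 macrophage markers after IL-33 and for all 6 macrophage markers tested in ILC210. *Sftpc*, the surfactant protein C gene that defines alveolar type 2 cells, was listed at 0 in Treg10- and at most 0.192 FPKM in Treg10+. *Adipoq* and *Plin1*, defining markers of fat cells, were at most 0.364 FPKM in every ILC2 library. Of the 4 fat cell markers, *Cidec* alone could be tested after IL-33, and it was lower (-2.03). In bulk samples, fewer cells of a type and less RNA per cell cannot be told apart. *Ddx3y*, a Y-linked gene, was at most 0.153 FPKM in both ILC2IL-33 libraries and in ILC2PBS replicate 3, and at 5.47 and 8.25 FPKM in ILC2PBS replicates 1 and 2, so sex is in part confounded with treatment. *Ptprc*, which encodes CD45, differed by 0.14 on the log2 scale after IL-33 (95% interval -0.40 to 0.68). Of 11 ILC2 markers, *Ptprc* among them, 10 had a log2 ratio above 0 after IL-33, with a median of 0.53. As higher passed 4 of the 11, where 13.1% of all genes did. The markers summed to 3931 and 3604 FPKM in ILC2IL-33, against 1961 to 3116 FPKM in ILC2PBS. They include *Il13* and *Klrg1*, which the paper reports as upregulated by IL-33, beside *Il5* and *Areg*. The count and the sum therefore do not measure ILC2 content alone.

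Promoter windows of 300 bases, from 250 before to 50 after the start of a gene, were taken from RefSeq on GRCm38.p6 for the 25 members that had an entry. Some genes have several windows, 1 for each annotated start, and a gene was counted where any of its windows held the motif. The sequence TCACNCCAC, a form of the element that SREBPs bind, was searched on both strands together with CCAAT, the box bound by NF-Y that often lies close to such an element. Neither motif contains the other. TCACNCCAC was found in 1 of the 25 members, *Hmgcs1*, and in 1.44% of all 27025 genes with a window. CCAAT was found in 19 of the 25, or 76.0%, and in 41.1% of all genes. No window of *Abca1*, *Acaca*, *Acat2*, *Elovl6*, *Fads2* or *Scap* held a CCAAT box, and *Dhcr7*, *Insig2*, *Me1*, *Pmvk* and *Srebf1* had windows with and without one. Windows of 3 genes are shown on the strand of the gene, because *Hmgcs1* holds both motifs, *Cyp51* is the sterol enzyme whose level differed most often between groups and *Lss* is the sterol enzyme that differed most between ILC2 and Treg cells. Capitals mark TCACNCCAC and CCAAT or their reverse complements. The *Hmgcs1* window lies at chr13:119690101-119690400 on the plus strand, that of *Cyp51* at chr5:4104648-4104947 on the minus strand and that of *Lss* at chr10:76531355-76531654 on the plus strand.
Hmgcs1: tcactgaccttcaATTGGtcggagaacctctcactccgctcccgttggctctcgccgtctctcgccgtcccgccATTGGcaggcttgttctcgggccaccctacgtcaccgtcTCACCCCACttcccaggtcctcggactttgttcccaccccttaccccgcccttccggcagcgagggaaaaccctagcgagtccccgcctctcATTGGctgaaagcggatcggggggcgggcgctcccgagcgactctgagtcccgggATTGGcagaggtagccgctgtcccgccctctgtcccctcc
Cyp51: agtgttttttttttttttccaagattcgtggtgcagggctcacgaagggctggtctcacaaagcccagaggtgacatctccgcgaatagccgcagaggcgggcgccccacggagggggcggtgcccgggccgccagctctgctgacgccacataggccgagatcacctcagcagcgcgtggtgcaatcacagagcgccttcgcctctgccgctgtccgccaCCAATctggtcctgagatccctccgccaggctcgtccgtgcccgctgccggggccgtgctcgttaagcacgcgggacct
Lss: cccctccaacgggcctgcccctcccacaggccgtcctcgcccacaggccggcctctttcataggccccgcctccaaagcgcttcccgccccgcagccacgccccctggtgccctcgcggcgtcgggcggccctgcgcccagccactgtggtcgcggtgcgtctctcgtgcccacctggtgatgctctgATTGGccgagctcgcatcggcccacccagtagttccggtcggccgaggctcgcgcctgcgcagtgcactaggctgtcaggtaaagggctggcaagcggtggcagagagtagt
A match in these letters is a description of the sequence, and binding was not measured.

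Of the 16 enzymes of the cholesterol pathway, *Cyp51* alone passed between ILC2IL-33 and ILC2PBS. The enzymes together summed to 194.4 and 196.9 FPKM in ILC2IL-33 and to 157.7 to 168.2 FPKM in ILC2PBS. *Cyp51*, lanosterol demethylase, was at 23.4 and 20.0 FPKM in ILC2IL-33, against 12, 11.3 and 13.2 FPKM in ILC2PBS. Both libraries after IL-33 lay above all vehicle libraries, and the log2 ratio was 0.83 (SE 0.19, limma adjusted p = 0.0117). Most ILC2 markers also had a log2 ratio above 0, and their part in the *Cyp51* difference was not tested. Of 33 members *Cyp51* alone passed as higher, where 13.1% of the 12565 genes tested did. No member passed as higher with a fold of at least 2, where 8.22% of genes did. The call was lost without ILC2IL-33 replicate 1 (0.72, limma adjusted p = 0.0983), where the single library left after IL-33 has to borrow its spread from the vehicle group. It was also lost without ILC2PBS replicates 1 and 2 together, the libraries with *Ddx3y* (0.71, limma adjusted p = 0.131), a choice made after the data were seen.

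None of the 7 mevalonate enzymes passed after IL-33, and their log2 fold changes ran from -0.09 to 0.70 with a median of 0.20, where the median of all genes was -0.06. *Hmgcs1*, which condenses acetoacetyl-CoA and acetyl-CoA, was at 13.5 and 12.9 FPKM in ILC2IL-33, against 11.7, 15.2 and 12.6 FPKM in ILC2PBS. The groups overlapped, and the 95% interval of its log2 fold change was -0.46 to 0.48. *Fdps*, farnesyl diphosphate synthase, had 18.3 and 16.4 FPKM in ILC2IL-33, against 15.7, 18.1 and 18 FPKM in ILC2PBS. Its interval of -0.41 to 0.43 leaves room for a change of less than 1 on the log2 scale in either direction. *Acat2*, which joins 2 acetyl-CoA, had the widest interval of the enzymes (-0.36 to 1.75), with 6.36 and 8.63 FPKM in ILC2IL-33, against 6.33, 6.21 and 2.43 FPKM in ILC2PBS. Vehicle replicate 3 stood below the other vehicle libraries for this gene, and against that library alone, without ILC2PBS replicates 1 and 2, *Acat2* passed (1.61, limma adjusted p = 0.00444).

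Of the 9 enzymes after farnesyl diphosphate, 8 did not pass, with log2 fold changes between -0.23 for *Hsd17b7* and 0.44 for *Lss*, lanosterol synthase. Their intervals all lay between -0.87 and 1.04. The proliferation markers measured beside them behaved otherwise: all 8 passed as higher, with log2 fold changes from 3.73 to 4.66. *Mki67*, made by dividing cells, stood at 38.0 and 63.3 FPKM in ILC2IL-33, against 2.36, 1.70 and 4.40 FPKM in ILC2PBS. Under quantile normalization, with a median over all genes of 0.14, *Tm7sf2*, a sterol reductase, also passed (0.89, limma adjusted p = 0.0304), and with equal medians *Mvd*, mevalonate diphosphate decarboxylase, passed (0.66, limma adjusted p = 0.0354).

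The sterol sensing genes did not pass either. *Srebf2*, which encodes the SREBP that favours cholesterol genes, was at 32.6 and 42.0 FPKM in ILC2IL-33, against 39.1, 34.1 and 48.1 FPKM in ILC2PBS. *Srebf1*, whose products favour fatty acid genes, was at 16.9 and 20.9 FPKM in ILC2IL-33, against 18.1, 22.1 and 23.1 FPKM in ILC2PBS, and its locus overlaps that of *Rai1*. *Insig1*, itself a target of SREBPs, was at 18.3 and 15.9 FPKM in ILC2IL-33, against 15.8, 15.8 and 18.2 FPKM in ILC2PBS. The groups overlapped for these 3 genes. *Insig2* had a log2 ratio of -0.51 (95% interval -1.03 to 0.02) and *Scap* of -0.18 (-0.70 to 0.34).

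**Figure D1:**
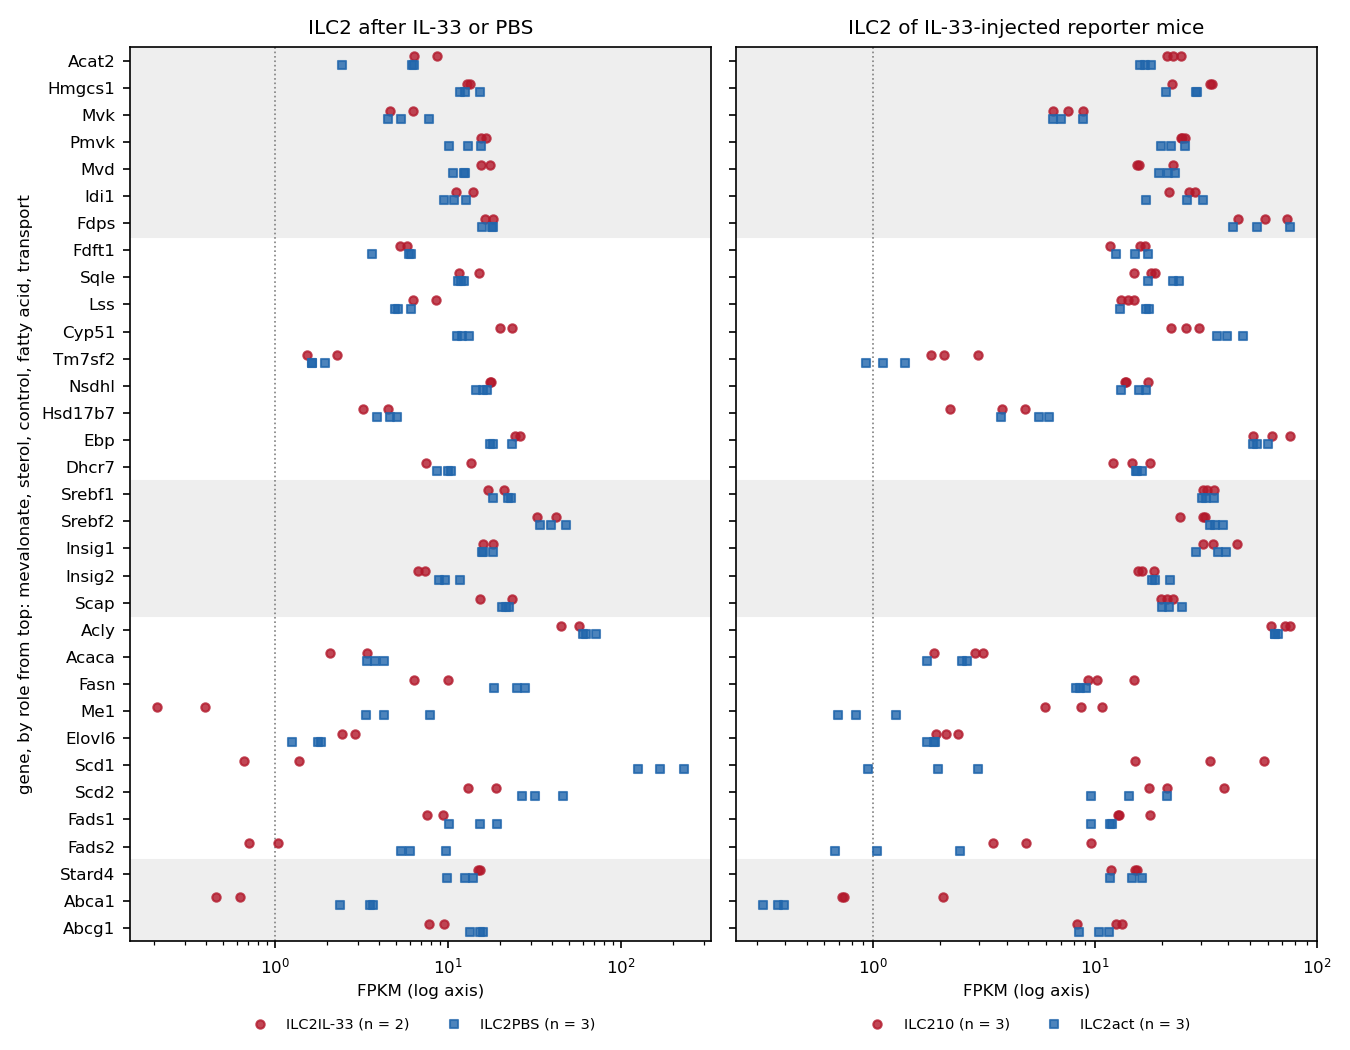
FPKM of the 33 members in each ILC2 library on log axes, with 1 symbol per library, IL-33 or ILC210 as circles above PBS or ILC2act as squares in each row, the floor of 1 FPKM as a dotted line and roles as shaded bands. The cholesterol enzymes of the 2 groups lie close together in both panels, whereas *Scd1* separates them, with 126 FPKM or more in ILC2PBS and 1.38 FPKM or less in ILC2IL-33.

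Of 9 genes of fatty acid synthesis and desaturation, *Scd1*, *Fads2*, *Me1*, *Fasn* and *Scd2* were lower in ILC2IL-33 than in ILC2PBS. Thus 5 passed as lower, none as higher and 4 did not pass, and over all members 7 of 33 were lower where 21.5% of all genes tested were, a share near that background. With a fold of at least 2, 6 of 33 were lower, where 18% of genes were. *Scd1*, the stearoyl-CoA desaturase that makes oleate, had 0.660 and 1.38 FPKM in ILC2IL-33, against 168, 232 and 126 FPKM in ILC2PBS. This was the widest gap of any member, with a log2 ratio of -7.17 (SE 0.29, limma adjusted p = 3.77e-05). *Fads2*, the delta-6 desaturase of polyunsaturated fatty acids, had 0.706 and 1.04 FPKM in ILC2IL-33, against 6.06, 9.77 and 5.32 FPKM in ILC2PBS. It fell by 2.74 on the log2 scale (SE 0.32, limma adjusted p = 0.000543).

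*Me1*, malic enzyme, supplies NADPH for fatty acid synthesis. It had 0.207 and 0.395 FPKM in ILC2IL-33, against 4.25, 7.89 and 3.36 FPKM in ILC2PBS, and fell by 2.27 on the floored scale (SE 0.38, limma adjusted p = 0.0031). *Fasn*, fatty acid synthase, had 6.31 and 9.93 FPKM in ILC2IL-33, against 18.4, 27.9 and 25.2 FPKM in ILC2PBS. It stayed well above the floor in all libraries and fell by 1.57 (SE 0.28, limma adjusted p = 0.00395). *Scd2*, a desaturase next to *Scd1* and close to it in sequence, had 13.1 and 18.9 FPKM in ILC2IL-33, against 26.6, 46.1 and 31.6 FPKM in ILC2PBS. It fell by 1.11 (SE 0.28, limma adjusted p = 0.0194), and reads shared between these paralogs could not be told apart from FPKM. The calls of *Scd1*, *Fads2*, *Me1* and *Fasn* held whichever 1 library was left out. For *Me1* both ILC2IL-33 libraries lay below the floor of 1 FPKM, so leaving out either could not change their floored mean. That of *Scd2* was lost without ILC2IL-33 replicate 1 (-0.84, limma adjusted p = 0.141) and without ILC2PBS replicate 2 (-0.88, limma adjusted p = 0.0586).

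The first steps of the fatty acid pathway did not pass. *Acly*, ATP citrate lyase, which makes cytosolic acetyl-CoA for both pathways, was at 44.8 and 57.3 FPKM in ILC2IL-33, against 59.9, 62.4 and 71.8 FPKM in ILC2PBS, a log2 ratio of -0.35 (95% interval -0.78 to 0.08). *Acaca*, acetyl-CoA carboxylase, had a log2 ratio of -0.51 (-1.21 to 0.19). *Fads1*, the delta-5 desaturase, had one of -0.77 (limma adjusted p = 0.0862) and passed without ILC2PBS replicate 3 (-1.02, limma adjusted p = 0.0140). *Elovl6*, an elongase of long-chain fatty acids, ran the other way, at 2.91 and 2.44 FPKM in ILC2IL-33, against 1.77, 1.25 and 1.85 FPKM in ILC2PBS. Its log2 fold change of 0.73 did not pass (limma adjusted p = 0.0757), but passed under quantile normalization (1.35, adjusted p = 0.00568), with equal medians (0.91, adjusted p = 0.0430) and without ILC2PBS replicate 3 (0.84, limma adjusted p = 0.0484).

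Both exporters of cholesterol were lower after IL-33. *Abca1*, which loads cholesterol onto apolipoprotein A-I, had 0.458 and 0.630 FPKM in ILC2IL-33, against 2.38, 3.70 and 3.52 FPKM in ILC2PBS, and fell by 1.65 (SE 0.28, limma adjusted p = 0.00312). This call held whichever 1 library was left out. Both ILC2IL-33 libraries lay below the floor for *Abca1* and were set to 1, so leaving out either could not change their mean. *Abcg1*, which exports sterol to high-density lipoprotein, had 7.78 and 9.41 FPKM in ILC2IL-33, against 15.2, 15.9 and 13.4 FPKM in ILC2PBS, and fell by 0.79 (limma adjusted p = 0.0201). It lost its call without ILC2IL-33 replicate 1 (-0.66, adjusted p = 0.131), ILC2PBS replicate 1 (-0.77, adjusted p = 0.0753) or ILC2PBS replicate 2 (-0.74, limma adjusted p = 0.0682). *Stard4*, which carries sterol between membranes, was not lower (0.34, 95% interval -0.17 to 0.84).

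Among 29 other genes of lipid metabolism, 2 passed as higher, 9 as lower and 18 did not pass. Over all genes tested, 13.1% passed as higher and 21.5% as lower. With a fold of at least 2, 7 of the 29 were lower and 1 was higher, where 18% and 8.22% of genes were. The 1 that was higher had a log2 ratio of 1.13. The 6 with the largest changes were all lower in ILC2IL-33. *Nr1h3*, which encodes the sterol-activated receptor LXR alpha, had 0.607 and 0.314 FPKM in ILC2IL-33, against 8.92, 10.6 and 5.51 FPKM in ILC2PBS (log2 ratio -3.01, limma adjusted p = 0.000398). The others were *Mylip*, an LXR target that degrades lipoprotein receptors (-1.77), *Gpam*, which starts triglyceride synthesis (-1.52), the acyl-CoA synthetase gene *Acsl3* (-1.46), *Mid1ip1*, a partner of acetyl-CoA carboxylase (-1.44), and the elongase gene *Elovl1* (-1.32). *Acsl3* lost its call without ILC2IL-33 replicate 2 (-1.21, limma adjusted p = 0.0525) and under quantile normalization (-0.58, limma adjusted p = 0.112). *Elovl1* lost its call without either ILC2IL-33 library and without ILC2PBS replicate 1 or 2 (-1.48 to -1.06, limma adjusted p = 0.0516 to 0.114).

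The 5 fatty acid genes that fell did so beside markers of other lung cells, which were lower too. *Sftpc* was at 67.9 and 106 FPKM in ILC2IL-33, against 7593, 10744 and 3279 FPKM in ILC2PBS, a log2 ratio of -6.24. As a share of the *Sftpc* level, *Scd1* was at 0.972% and 1.30% in ILC2IL-33 and at 2.21%, 2.16% and 3.83% in ILC2PBS. *Fasn* was at 9.30% and 9.33% in ILC2IL-33 and at 0.242%, 0.260% and 0.768% in ILC2PBS. Macrophage markers, 8 of 8 lower, summed to 89.6 and 92.3 FPKM in ILC2IL-33, against 2150 to 4049 FPKM in ILC2PBS. The part of other lung cells in the changes of the fatty acid, transport and other lipid genes was not tested.

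Within ILC2 of IL-33-injected reporter mice, *Scd1*, *Me1* and *Fads2* were higher in ILC210 than in ILC2act. Of 32 members tested, 5 passed as higher and 1 as lower, where 11.7% of the 11564 genes tested were higher and 4.34% lower. With a fold of at least 2, 3 members were higher and none lower, where 9.24% and 1.05% of all genes were. *Abca1* was too low to be tested. The median log2 fold change of the members was 0.07, and that of all genes was 0.03, or -0.12 under quantile normalization.

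*Scd1* had 15.2, 32.9 and 58.0 FPKM in ILC210, against 0.941, 1.95 and 2.97 FPKM in ILC2act, a log2 ratio of 4.10 (SE 0.51, limma adjusted p = 0.000619). The groups did not overlap, and the ILC210 libraries themselves differed widely. *Me1* had 8.68, 5.95 and 10.7 FPKM in ILC210, against 0.833, 0.693 and 1.27 FPKM in ILC2act, a log2 ratio of 2.92 (SE 0.25, limma adjusted p = 8.05e-05). Both calls held whichever 1 library was left out. With the per-gene equal-variance test *Me1* passed and *Scd1* did not (adjusted p = 0.0568). *Fads2* had 3.48, 4.89 and 9.57 FPKM in ILC210, against 2.47, 0.672 and 1.04 FPKM in ILC2act, a log2 ratio of 2.00 (SE 0.45, limma adjusted p = 0.0156). Replicate 1 of ILC2act stood above the others of its group for *Fads2*. The *Fads2* call was lost without ILC210 replicate 3 (1.59, adjusted p = 0.0614), ILC2act replicate 2 (1.77, adjusted p = 0.0652) or ILC2act replicate 3 (1.80, limma adjusted p = 0.0678).

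These 3 genes stood beside large differences in lung structural cell markers. *Sftpc* was at 4690, 5816 and 7655 FPKM in ILC210, against 354, 364 and 447 FPKM in ILC2act. Paired by the consecutive numbers in the library titles, *Scd1* was higher in ILC210 by 16.1, 16.8 and 19.5 times and *Sftpc* by 13.2, 16 and 17.1 times. As a share of the *Sftpc* level, *Scd1* was at 0.324%, 0.565% and 0.758% in ILC210 and at 0.266%, 0.536% and 0.664% in ILC2act. The share of *Me1* was 0.185%, 0.102% and 0.140% in ILC210, against 0.235%, 0.190% and 0.283% in ILC2act. That of *Fads2* was 0.0742%, 0.0840% and 0.125% in ILC210, against 0.698%, 0.184% and 0.232% in ILC2act. *Me1* was higher by 10.4, 8.59 and 8.46 times in the 3 pairs, and *Fads2* by 1.41, 7.27 and 9.24 times. *Fasn*, at 10.2, 9.34 and 15.1 FPKM in ILC210, against 8.52, 9.08 and 8.17 FPKM in ILC2act, was higher by 1.2, 1.03 and 1.84 times and did not pass (log2 ratio 0.40, limma adjusted p = 0.217). The part of other lung cells in these differences was not tested.

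**Figure D2:**
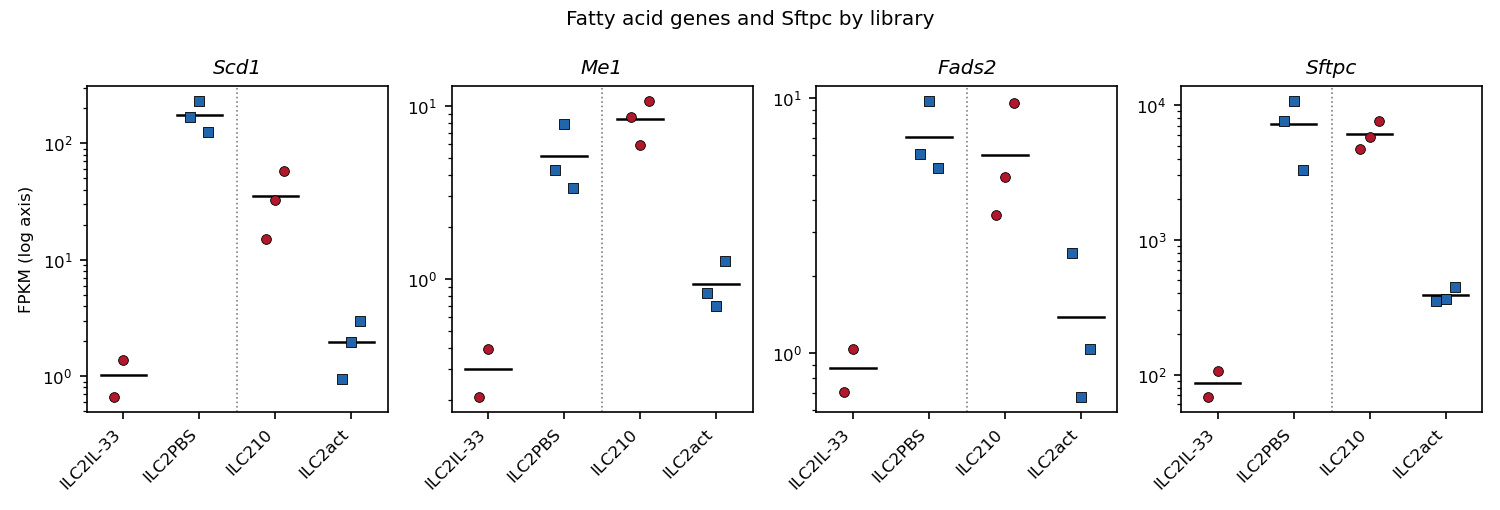
FPKM of *Scd1*, *Me1*, *Fads2* and the alveolar type 2 marker *Sftpc* on log axes in the ILC2 libraries, with 1 symbol per library, horizontal bars for group means and a dotted line between the tables, which were normalized separately. In all 4 panels the ILC2IL-33 libraries lie below those of ILC2PBS and the ILC210 libraries above those of ILC2act, and the mean of *Scd1* was 35.4 FPKM in ILC210 and 1.95 FPKM in ILC2act.

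The other fatty acid genes had positive log2 fold changes in ILC210 and did not pass, from 0.09 for *Acly* to 0.77 for *Scd2*. *Scd2* had 21.2, 17.6 and 38.1 FPKM in ILC210, against 14.3, 9.58 and 21.1 FPKM in ILC2act, and the groups overlapped. Within each pair ILC210 was higher, by 1.49, 1.84 and 1.80 times, and with the pairs as a replicate block *Scd2* passed (limma adjusted p = 0.000770, against 0.183 without the block).

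*Cyp51* was lower in ILC210 than in ILC2act. It had 29.3, 22.1 and 25.8 FPKM in ILC210, against 46.5, 35.6 and 39.3 FPKM in ILC2act, and fell by 0.65 (SE 0.14, limma adjusted p = 0.0124). The groups did not overlap, and the ratio of ILC210 to ILC2act was 0.630, 0.619 and 0.657 in the 3 pairs. The leucocyte gene *Ptprc* had a log2 ratio of -0.26 in the same comparison (95% interval -0.48 to -0.05) and *Gata3*, a regulator of ILC2, one of -0.08 (-0.43 to 0.27). Of 11 ILC2 markers, 9 had a log2 ratio below 0 and 3 passed as lower, *Il7r*, the IL-7 receptor gene (-0.67), *Id2* (-0.57) and *Rora* (-0.39), and their part in the *Cyp51* difference was not tested. Without ILC210 replicate 3 the call of *Cyp51* was lost (-0.66, limma adjusted p = 0.0506), and without both libraries of pair 3, a choice made after the data were seen, it was lost as well (-0.68, limma adjusted p = 0.158).

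*Tm7sf2* and *Acat2* were the cholesterol enzymes that passed as higher in ILC210. *Tm7sf2* had 2.97, 2.09 and 1.83 FPKM in ILC210, against 1.10, 0.930 and 1.40 FPKM in ILC2act, a log2 ratio of 0.96 (limma adjusted p = 0.0362). These levels lie near the floor, and the locus overlaps that of *Vps51*, whose reads the library kit cannot separate by strand. The call was lost without ILC210 replicate 1 (0.76) or 2 (1.01), without ILC2act replicate 1 (0.93), 2 (0.86) or 3 (1.10), with adjusted p from 0.0621 to 0.141 in limma, and under quantile normalization (0.29, adjusted p = 0.534). *Acat2* had 24.3, 21.2 and 22.5 FPKM in ILC210, against 17.8, 16 and 16.8 FPKM in ILC2act, a log2 ratio of 0.42 (SE 0.11, limma adjusted p = 0.0265). Its call was lost without ILC210 replicate 1 (0.37) or 3 (0.43) and without ILC2act replicate 2 (0.39) or 3 (0.42), with adjusted p from 0.0934 to 0.0948 in limma, and with equal medians (0.28, adjusted p = 0.133).

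The remaining 13 of 16 cholesterol enzymes did not pass in ILC210. The enzymes summed to 315.8 to 413.4 FPKM in ILC210 and to 307.1 to 413.8 FPKM in ILC2act. *Fdps*, the most abundant mevalonate enzyme, had 73.3, 44.1 and 58.5 FPKM in ILC210, against 76.1, 41.8 and 53.6 FPKM in ILC2act. It varied more between pairs than between groups. *Hmgcs1* had 33.2, 22.3 and 33.7 FPKM in ILC210, against 28.7, 20.9 and 28.9 FPKM in ILC2act (95% interval of the log2 fold change -0.26 to 0.61). *Sqle*, squalene epoxidase, had a log2 ratio of -0.30 (-0.64 to 0.05), *Lss* one of -0.16 (-0.48 to 0.17) and *Hsd17b7*, a sterol ketoreductase, one of -0.56 (-1.27 to 0.15).

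The sterol sensing genes did not pass in ILC210. *Srebf1* was at 30.8, 34.5 and 31.9 FPKM in ILC210 and at 30.2, 34.6 and 31.6 FPKM in ILC2act, with a 95% interval of -0.21 to 0.24 on the log2 scale. *Srebf2* was at 31.5, 24.2 and 30.9 FPKM in ILC210, against 32.9, 34.8 and 37.6 FPKM in ILC2act. Its log2 fold change of -0.29 did not pass (limma adjusted p = 0.173), but passed with equal medians (-0.43, limma adjusted p = 0.0494). Of 28 other lipid genes tested, 3 passed as higher and 2 as lower, where 11.7% and 4.34% of all genes did. *Nr1h3* was the one with a fold of at least 2, at 1.60, 5.15 and 6.98 FPKM in ILC210, against 0.511, 0.807 and 0.269 FPKM in ILC2act (1.95, limma adjusted p = 0.0241). Its call was lost without any 1 ILC2act library (1.95, limma adjusted p = 0.0581 to 0.0787) and under quantile normalization (1.53, limma adjusted p = 0.0640). Macrophage markers summed to 912 to 2307 FPKM in ILC210, against 69.4 to 111 FPKM in ILC2act, and their part in the *Nr1h3* difference was not tested.

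**Figure D3:**
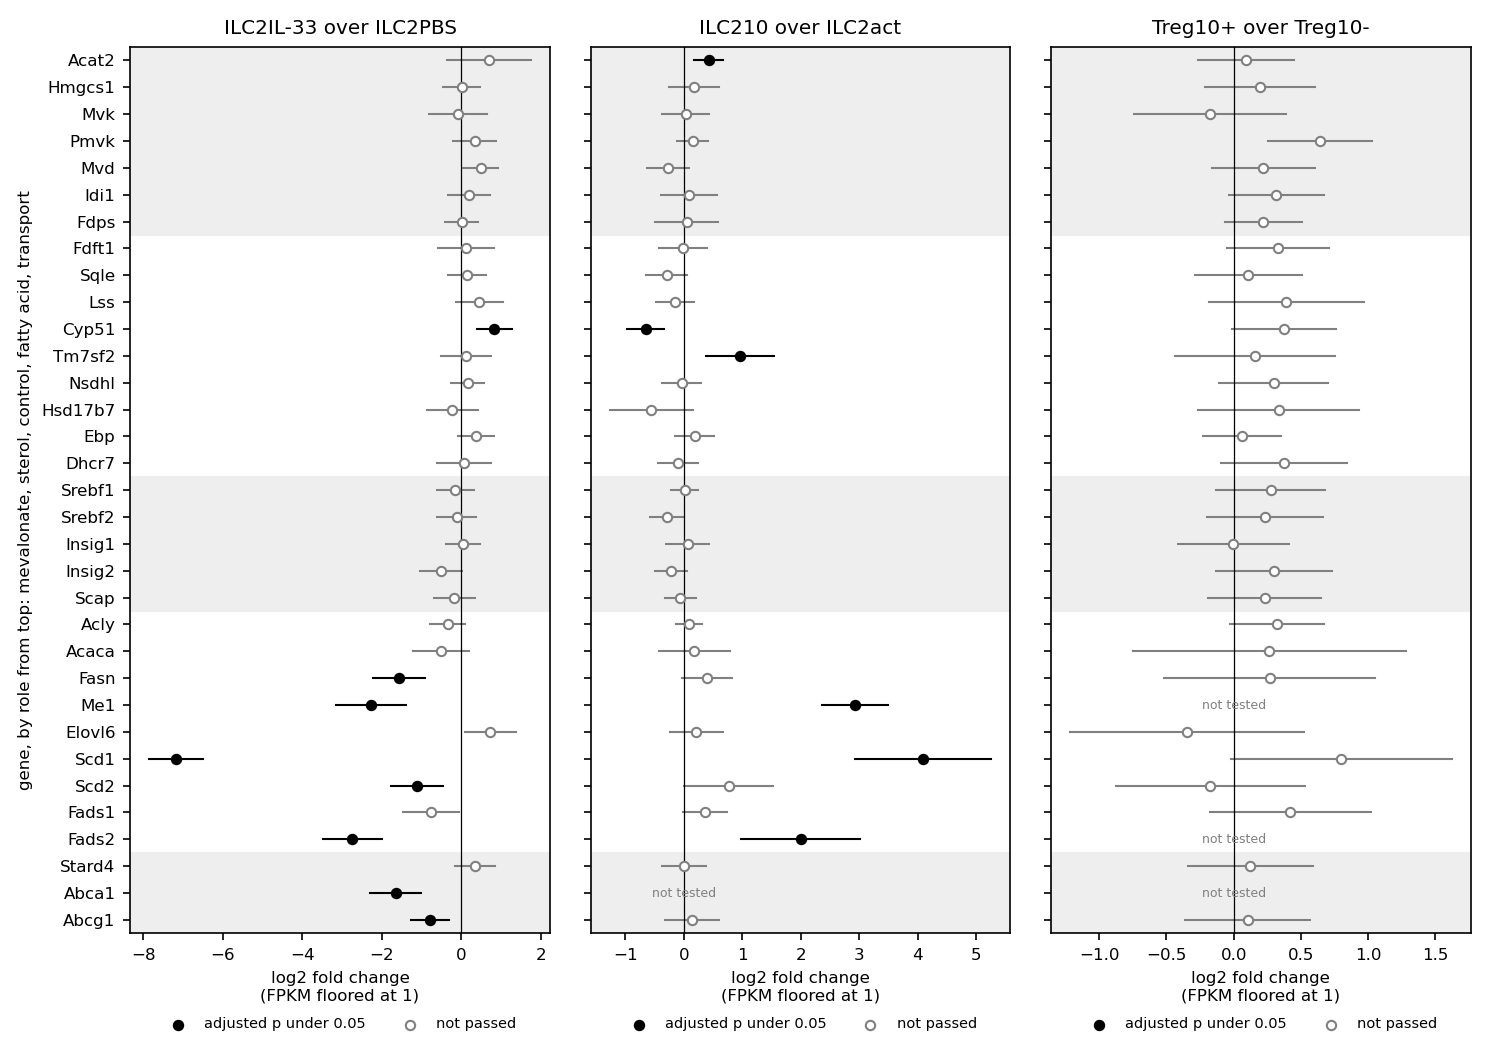
Log2 fold changes of the members in 3 comparisons, with 95% intervals as lines, filled circles for an adjusted p under 0.05 in limma, open circles for the others and shaded bands for roles; the horizontal scale differs between panels. Changes of at least 2-fold were found among fatty acid and transport genes, as for *Scd1* at -7.17 after IL-33 and 4.10 in ILC210, and none of the 30 members tested in Treg cells passed.

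In splenic Treg cells, no member passed between Treg10+ and Treg10- cells in limma fitted to the Treg libraries alone, without a replicate block. Of 30 members tested, 0 passed in either direction, where 0.987% of the 10837 genes tested were higher and 0.517% lower. *Pmvk* was the 1 member with an unadjusted p under 0.05, and the per-gene equal-variance test gave 2 such members, *Pmvk* and *Fdps*, and none after adjustment. *Me1*, *Fads2* and *Abca1* were too low for the test. *Pmvk*, phosphomevalonate kinase, was at 29.7 and 25.8 FPKM in Treg10+, against 18.8 and 16.7 FPKM in Treg10-, a log2 ratio of 0.64 (95% interval 0.26 to 1.03, limma adjusted p = 0.140). In a fit of all 10 reporter libraries it passed (limma adjusted p = 0.0420).

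Log2 fold changes in Treg cells were above 0 for 26 of the 30 members, with a median of 0.25, where the median of all genes was 0.01. The share of all genes above 0 was not computed. All 8 proliferation markers were above 0 as well, with a median of 0.44, and none of them passed. The 16 cholesterol enzymes summed to 404.9 and 419.0 FPKM in Treg10+ and to 338.6 and 363.5 FPKM in Treg10-. *Cyp51* was at 26.8 and 23.9 FPKM in Treg10+, against 18.1 and 21.1 FPKM in Treg10- (95% interval -0.01 to 0.76). *Scd1* was at 7.04 and 5.78 FPKM in Treg10+, against 2.70 and 4.99 FPKM in Treg10- (-0.02 to 1.62). The groups did not overlap for these genes, although neither passed. *Srebf1*, *Srebf2* and *Insig1* had intervals of -0.13 to 0.68, -0.20 to 0.66 and -0.41 to 0.41. Macrophage markers stood higher in Treg10+, 4 of 8 past the threshold, with a summed level of 179.0 and 220.8 FPKM in Treg10+ and of 25.1 and 62.5 FPKM in Treg10-. *Nr1h3*, at 11 and 8.50 FPKM in Treg10+, against 1.40 and 2.78 FPKM in Treg10-, was the 1 other lipid gene of 28 that passed (2.29, limma adjusted p = 0.0442), and it did not pass in the fit of all 10 libraries (limma adjusted p = 0.0750). Over all genes tested in Treg cells, 0.987% passed as higher. The parts of macrophage RNA and of proliferation in the values of Treg cells were not tested.

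*Lss*, *Fads1* and *Insig1* were higher in lung ILC2 than in splenic Treg cells in both comparisons made, and *Cyp51* was higher in ILC2act than in Treg10-. Cell type and organ cannot be told apart in these comparisons, which used a fit of all 10 reporter libraries and 12475 genes. Of 32 members tested, 6 were higher and 1 lower in ILC2act than in Treg10-, where 15.3% and 19.4% of all genes were. With a fold of at least 2, 3 were higher and none lower, where 7.89% and 8.53% of genes were. *Lss* had 17.0, 12.9 and 17.5 FPKM in ILC2act, against 5.45 and 7.23 FPKM in Treg10-, a log2 ratio of 1.32 (SE 0.18, limma adjusted p = 0.000282). *Fads1* had 11.9, 9.62 and 11.7 FPKM in ILC2act, against 4.38 and 5.77 FPKM in Treg10- (1.13, adjusted p = 0.00154). *Cyp51*, at 46.5, 35.6 and 39.3 FPKM in ILC2act, against 18.1 and 21.1 FPKM in Treg10-, had a log2 ratio of 1.04 (limma adjusted p = 0.000507). These 3 calls held under every alternative run. Of 9 alveolar type 2 markers, 6 were higher in ILC2act than in Treg10- and 1 was lower. Of 7 endothelial markers, 6 were higher and 1 lower. Of 8 macrophage and 6 mesenchymal markers, 2 each were higher, and of 5 alveolar type 1 markers 1 was higher and 1 lower. All 4 B cell markers were lower. The alveolar type 2 markers summed to 426 to 527 FPKM in ILC2act, against 13.8 to 25.3 FPKM in Treg10-. The part of such cells in these differences was not tested. *Lss* overlaps the entry 4930483K19Rik, whose reads could not be separated by strand.

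Differences under 2-fold were found for *Hsd17b7* (0.95), *Insig1* (0.80) and *Srebf1* (0.37), all higher in ILC2act, and for *Abcg1* (-0.66), lower in ILC2act. *Insig1* had 35.9, 28.5 and 39.0 FPKM in ILC2act, against 17.9 and 21.6 FPKM in Treg10-, and lost its call without Treg10- replicate 1 (0.66, limma adjusted p = 0.0663). That of *Srebf1* was lost without the same library (0.22, adjusted p = 0.298), ILC210 replicate 3, ILC2act replicate 2 or ILC2act replicate 3 (0.32 to 0.39, limma adjusted p = 0.0531 to 0.111). Those of *Hsd17b7* and *Abcg1* were each lost without any 1 of 7 libraries, with adjusted p from 0.0628 to 0.216 and from 0.0509 to 0.211 in limma. Of 28 other lipid genes, 6 were higher and 4 lower, where 15.3% and 19.4% of all genes were, and 2 exceeded 2-fold. *Lpcat3*, which remodels phospholipids with polyunsaturated fatty acids, had 107, 84.6 and 88.8 FPKM in ILC2act, against 27.7 and 26.5 FPKM in Treg10- (1.78, limma adjusted p = 3.66e-06). *Elovl5*, an elongase of polyunsaturated fatty acids, had 303, 335 and 311 FPKM in ILC2act, against 134 and 138 FPKM in Treg10- (1.22, limma adjusted p = 3.89e-05).

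**Figure D4:**
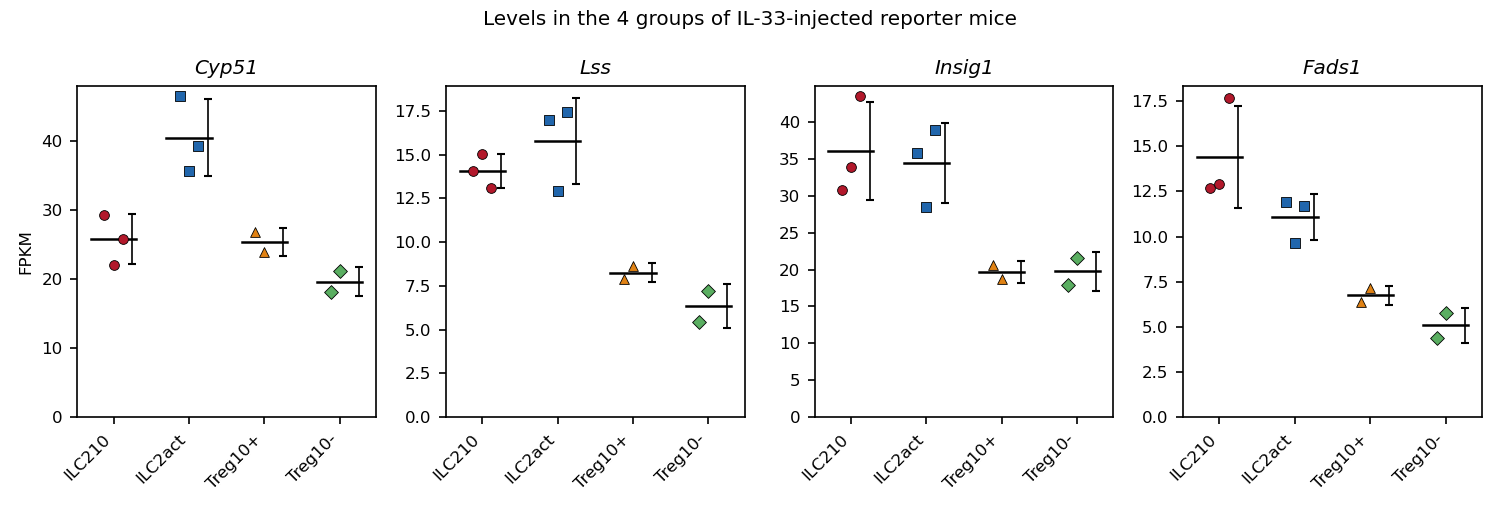
FPKM of *Cyp51*, *Lss*, *Insig1* and *Fads1* in the 4 groups of reporter mice, with 1 symbol per library, horizontal bars for group means and error bars for 1 SD (n = 3 for ILC2, n = 2 for Treg cells). *Cyp51* averaged 25.7 FPKM in ILC210 and 25.4 FPKM in Treg10+, below the 40.5 FPKM of ILC2act, whereas *Lss*, *Insig1* and *Fads1* were higher in both ILC2 groups than in both Treg groups.

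Among Thy-1.1+ cells, 6 of 32 members were higher and 5 lower in ILC210 than in Treg10+, where 19.6% and 17.5% of all genes were. With a fold of at least 2, 4 were higher and none lower, where 12.5% and 7.25% of genes were. *Me1* (3.00, adjusted p = 6.93e-06), *Fads2* (2.45, adjusted p = 0.00196), *Scd1* (2.27, adjusted p = 0.0104) and *Fads1* (1.08, limma adjusted p = 0.00185) exceeded 2-fold. *Me1* was at 1.06 and 0.252 FPKM in Treg10+ and *Fads2* at 0.618 and 0.591 FPKM, below the levels of all 3 ILC210 libraries given above. *Scd1* lost its call without Treg10+ replicate 2 (2.12, limma adjusted p = 0.0699). *Fads1* had 12.7, 12.9 and 17.7 FPKM in ILC210, against 6.37 and 7.12 FPKM in Treg10+, and kept its call under every alternative run. *Sftpc*, as given above, was at 4690 FPKM or more in ILC210 and at most 0.192 FPKM in Treg10+, and its part in these differences was not tested.

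*Lss* (0.77) and *Insig1* (0.86) were again higher in ILC2. *Cyp51*, at 25.7 ± 3.6 FPKM in ILC210 (SD, n = 3) and 25.4 ± 2.1 FPKM in Treg10+ (SD, n = 2), had a 95% interval of -0.33 to 0.36. Lower in ILC210 were *Fdft1*, squalene synthase (-0.81), *Dhcr7*, the last sterol reductase (-0.75), *Mvd* (-0.69), *Abcg1* (-0.63) and *Insig2* (-0.41). *Fdft1* had 16.9, 11.6 and 16 FPKM in ILC210, against 27.6 and 23.8 FPKM in Treg10+, and its locus overlaps that of *Ctsb*. Without Treg10+ replicate 1, when the lone Treg10+ library is assumed to vary like the other groups, none of the 5 lower members passed (*Fdft1* -0.70, *Dhcr7* -0.74, *Mvd* -0.57, *Insig2* -0.34 and *Abcg1* -0.80, limma adjusted p = 0.0527 to 0.223), and *Lss* was lost too (0.70, adjusted p = 0.0547). *Insig2* was lost without any 1 of 7 libraries and *Abcg1* without any 1 of 8. Of 28 other lipid genes tested, 6 were higher and 3 lower in ILC210, where 19.6% and 17.5% of all genes were. *Lpcat3* alone exceeded 2-fold (1.33, limma adjusted p = 2.32e-05).

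The difference between Thy-1.1+ and Thy-1.1- cells was compared between ILC2 and Treg cells as a contrast of the same fit. Of 32 members, 2 had a larger and 1 a smaller log2 ratio in ILC2, where 7.01% and 2.36% of all genes did. *Me1* (2.88, standard error 0.34, adjusted p = 0.00064) and *Scd1* (3.30, standard error 0.80, adjusted p = 0.0287) had the larger log2 ratio in ILC2, and *Cyp51* (-1.03, standard error 0.22, limma adjusted p = 0.0139) had the smaller one. *Me1* averaged 0.654 FPKM in Treg10+ and 0.209 FPKM in Treg10-, below the floor, so its value restates the difference within ILC2 and does not measure one in Treg cells. *Cyp51* lost this call without Treg10+ replicate 1 (-0.95, adjusted p = 0.0730) or Treg10- replicate 1 (-0.92, limma adjusted p = 0.0717). *Scd1* lost it without any 1 of 8 of the 10 libraries, the exceptions being ILC210 replicate 1 and ILC2act replicate 3 (2.84 to 3.74, limma adjusted p = 0.0502 to 0.126). *Me1* kept it without any 1 library and lost it on log2(FPKM + 0.1) without the floor (2.01, limma adjusted p = 0.0953). *Sftpc* was higher in ILC210 than in ILC2act, as were *Me1* and *Scd1*, by the values given above, and its part in these calls was not tested.

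In the reporter libraries *Acly* (62.2 to 75.5 FPKM in ILC210, 64.6 to 66.8 in ILC2act, 82.0 and 86.4 in Treg10+ and 60.8 and 74.7 in Treg10-), *Ebp*, a sterol isomerase, and *Fdps* had the 3 highest means in each of the 4 groups, in an order that differed between groups. *Ebp* and *Nsdhl*, a sterol dehydrogenase, lie on the X chromosome. *Ebp* was at 75.9, 62.6 and 51.4 FPKM in ILC210 and at 60.1, 53.9 and 51.4 FPKM in ILC2act, and at 72.9 and 75.5 FPKM in Treg10+ and 73.5 and 68.7 FPKM in Treg10-. The lowest cholesterol enzymes were *Tm7sf2* (0.930 to 2.97 FPKM in all 10 libraries) and *Hsd17b7* (2.21 to 6.21 FPKM). In the main fits *Mvk*, mevalonate kinase, *Idi1*, isopentenyl diphosphate isomerase, *Nsdhl*, *Hmgcs1*, *Sqle*, *Scap* and *Stard4* passed in none of the 5 group comparisons. Nor did *Ebp*, *Fdps*, *Pmvk*, *Srebf2*, *Acly*, *Acaca* and *Elovl6*. *Stard4* was higher in ILC2act than in Treg10- under quantile normalization (0.56, limma adjusted p = 0.0378), equal medians (0.59, limma adjusted p = 0.0326) and further alternatives. *Sqle*, *Scap*, *Pmvk* and *Acaca* also passed as higher in that comparison under some alternatives, and *Ebp* and *Elovl6* passed as lower.

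On GRCm38, chromosome 19 holds *Scd1* (44394450 to 44407709) and *Scd2* (44293676 to 44306862), with *Fads2* (10064164 to 10101503) and *Fads1* (10182888 to 10196872) as well. *Me1* lies on chromosome 9 from 86581363 to 86695914 and overlaps the entry A330041J22Rik, and *Cyp51* lies on chromosome 5 from 4080674 to 4104697 with no other entry over it.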

How the data were processed

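RNA-seq values of 15 libraries were analysed, 5 read on an Ion Proton (ILC2IL-33, ILC2PBS) and 10 on an Illumina sequencer (reporter mice). The authors aligned reads to GRCm38 with TopHat2 2.1.0 and deposited FPKM per gene from Cufflinks 2.2.1, with cDNA made by a kit that does not mark strand. Read depth per library is not given by FPKM, so its precision is unknown. Of 23846 entries for reporter mice, 317 were left out, 312 without an estimate for low data and 5 with a missing value, and values of 0.001 were read as 0. Groups came from the sample titles.

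The tables were fitted separately. After a floor of 1 FPKM, log2 values were fitted by lmFit and eBayes with trend of limma 3.58.1 in R 4.3.3, for genes that exceeded 1 FPKM in a number of libraries no smaller than the smallest group, with Benjamini-Hochberg adjustment over all genes tested. Other steps used Python 3.11.15. limma took the place of the per-gene equal-variance test that the methods name, which was run as an alternative. Other alternatives were pseudocounts of 1 and 0.1 without the floor, no filter, a mean of at least 5 FPKM, quantile normalization, equal medians, a fold of at least 2, each library left out, replicate blocks and a fit of 10 libraries. Consecutive numbers in the library titles were taken as pairs in ILC2 of reporter mice, since deviations from group means correlated within each of the 3 pairs (0.35, 0.30 and 0.19). On simulated data for ILC210 against ILC2act (11553 genes) 66.0% of genes raised by 1 and 100% of those raised by 2 on the log2 scale were recovered. For IL-33 against PBS (12550 genes) these were 10.0% and 70.0%, and for Treg cells (10817 genes) 22.0% and 74.0%. Only 50 genes were changed by each amount, all above 5 FPKM on average, where 1651 were higher and 2702 lower after IL-33. The adjusted threshold depends on how many genes change, so these shares do not give the sensitivity of the real tests.

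Named were all members, with values for each library where a fold of at least 2 passed, and at most 6 other lipid genes per comparison. Further members were given values to describe their roles, after these were seen. The members, gene lists and tests were chosen with earlier results of these data known. Loci overlapping on the genome were listed from the deposited coordinates, and promoter windows came from RefSeq.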

Additional observations from a re-analysis of the deposited data

Results flagged for a closer look

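The difference between Thy-1.1+ and Thy-1.1- cells was unequal in ILC2 and Treg cells for 3 members by the contrast tested in limma. The ILC2 value less the Treg value was 2.88 on the log2 scale for *Me1*, 3.30 for *Scd1* and -1.03 for *Cyp51*. *Me1* averaged 0.654 FPKM in Treg10+ and 0.209 FPKM in Treg10-, below the floor of 1 FPKM, so its value restates the difference within ILC2 and nothing can be read from it about Treg cells. Groups here held 2 or 3 libraries, too few to look for single libraries far from their group.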

How the results depend on the processing

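Of 530 combinations of a called member with an alternative, 435 kept the call in the same direction, 95 lost it and none changed sign. After IL-33, the count of members that passed went from 8 to 5 with a mean of at least 5 FPKM, 4 with the per-gene equal-variance test (*Scd1*, *Fads2*, *Abca1* and *Cyp51*) and 5 without ILC2PBS replicates 1 and 2, the last chosen after seeing the data. In ILC210 it went from 6 to 3 with a mean of at least 5 FPKM, 1, *Me1*, with the per-gene equal-variance test, 3 without pair 3, also chosen after seeing the data, and 3 with a fold of at least 2. That fold left 3 members instead of 7 in ILC2act against Treg10- and 4 instead of 11 in ILC210 against Treg10+. In Treg cells 0 members became 1 in the fit of 10 libraries and 2, *Acly* (0.32, limma adjusted p = 0.0258) and *Pmvk* (0.64, limma adjusted p = 0.00241), with the replicate block. Over all genes, 235 of 12475 were higher and 107 lower in that fit. With the replicate block 1022 of 10837 were higher and 741 lower. That block takes the consecutive numbers of only 2 pairs, whose deviations correlated at 0.38. In ILC210 the replicate block gave 7 members, the 6 and *Scd2*, and the tag in the titles as a replicate block gave 6. Of all 11564 genes, 1840 were higher and 927 lower with the first block, and 1384 and 566 with the tag. No paired analysis was possible because no numbers are shared for ILC2IL-33 and ILC2PBS.

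With 1 library left out at a time, the counts ranged from 5 to 10 after IL-33, 3 to 5 in ILC210, 0 to 0 in Treg cells, 3 to 10 in ILC2act against Treg10-, 5 to 11 in ILC210 against Treg10+ and 1 to 4 for the difference between ILC2 and Treg cells. Over all genes, 1651 were higher and 2702 lower after IL-33, or 2609 and 2126 under quantile normalization and 2385 and 2391 with equal medians. In ILC210 1350 were higher and 502 lower, or 1028 and 1191, and 1194 and 1014. *Abca1* and *Me1* were not tested without ILC2PBS replicates 1 and 2. FPKM hold no counts, so values near 1 FPKM, as for *Tm7sf2*, have no known counting error.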
